A study of Vitis vinifera with 40 samples.

Results

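MYB14 and MYB15 are grapevine MYB transcription factors known to switch on stilbene synthase genes. Their transcripts were followed here through somatic embryogenesis, from induced cell masses to the juvenile plant. Both were taken by their gene identifiers, VIT_07s0005g03340 for MYB14 and VIT_05s0049g01020 for MYB15, and make up 2 of the 29971 genes in the count table. The identifiers place MYB14 on chromosome 7 and MYB15 on chromosome 5. RNA had been sequenced from embryogenic cultures of *V. vinifera* cultivar Malvasia Istriana, raised from immature anthers, and from the plants regenerated from them. Early induction (EI), preglobular (PG), globular 1 (G1) and globular 2 (G2) samples were kept on auxin without light. Heart (H), torpedo 1 (T1), torpedo 2 (T2) and cotyledonary 1 (C1) embryos had been moved to a medium free of hormones, still without light. Cotyledonary 2 (C2) embryos were on the same kind of medium in a long day photoperiod, whereas seedlings (S), seedlings with epicotyl (EP) and juvenile plants (JP) received gibberellin in a long day. By the study's methods, the medium of the auxin cultures also held the cytokinin BAP, and the germination medium held the auxin IAA beside gibberellin. The 40 libraries covered 12 stages, with 5 replicates for C2 and EP and 3 for every other stage, and RNA came from pools of embryos. The EI cultures were sieved cell masses rather than formed embryos, and every stage had 1 medium and 1 light regime, so that development and culture condition cannot be told apart.

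Stilbenes such as resveratrol are defence compounds of grapevine. Stilbene synthase (STS) makes the stilbene skeleton from the substrates that chalcone synthase (CHS) uses for the first step towards flavonoids, and phenylalanine ammonia-lyase (PAL) supplies both branches from phenylalanine. In grapevine, MYB14 and MYB15 bind and activate promoters of STS genes, and both are known for their induction together with STS genes in leaves under wounding, ultraviolet light or downy mildew and in ripening berry skin.

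Library totals ranged from 13774534 to 68058022 counts with a median of 23096350. Levels are given as CPM, the counts per 1000000 counts of a library whose total was multiplied by its TMM factor, by which edgeR corrects for differences in composition. These factors ranged from 1.02 to 1.47 in EI to C1 and from 0.394 to 1.22 in C2 to JP, and the lowest, 0.394 to 0.424, belonged to EP replicates 1 to 3. All 50 pairs of replicates of a stage differed by more than sampling noise. EP replicates 4 and 5 had the deepest libraries, with 48074612 and 68058022 counts and TMM factors of 0.949 and 1.22. They differed more from EP replicates 1 to 3 than those did among themselves. The light-harvesting gene LHCA2 was at or below 1.07 CPM in every library up to C1, at 1.29 to 11.9 CPM in C2 and at 51.1 to 1202 CPM from S to JP, in the order of the light regimes on the labels. The C2 libraries were split, with LHCA2 at 9.86 to 11.9 CPM in replicates 1 to 3 and at 1.95 and 1.29 CPM in replicates 4 and 5. In these bulk samples, fewer cells that express a gene cannot be told apart from less of its RNA per cell.

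Both regulators had counts in every library, from 51 to 688 for MYB14 and from 18 to 7149 for MYB15. MYB14 moved within a narrow range, its stage means spanning 7.61-fold, whereas those of MYB15 spanned 147.5-fold. Both were lowest in PG, where MYB15 had 18 to 25 counts per library. The span of MYB15 leaned on this stage, as its next lowest stage mean was 11.9 CPM in JP. The level of one regulator is not compared with that of the other, since no gene lengths of this annotation were at hand.

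In the auxin cultures, MYB14 was at 2.53, 9.92 and 7.98 CPM in the EI libraries, at 2.79, 3.51 and 2.997 CPM in PG, at 5.87, 8.25 and 5.73 CPM in G1 and at 10.2, 11.3 and 13.8 CPM in G2. The PG libraries were low and close together, the EI libraries were spread over a 3.92-fold range, and G2 lay above G1 in every library. In the hormone-free embryos kept dark, MYB14 was at 12.2, 13.2 and 11.4 CPM in H, at 14.1, 5.64 and 24.4 CPM in T1, at 2.52, 5.73 and 12.4 CPM in T2 and at 8.93, 7.67 and 12.97 CPM in C1. The replicates of H were the closest of all stages, with a 1.16-fold range, and those of T1 and T2 the farthest apart, with 4.32-fold and 4.94-fold ranges. In the long day stages, MYB14 was at 27.4, 26.7, 19.8, 25.6 and 18.3 CPM in C2, at 9.83, 8.35 and 4.74 CPM in S, at 11.45, 12.3, 8.77, 7.85 and 5.66 CPM in EP and at 7.31, 20.8 and 13.1 CPM in JP. The C2 libraries lay above every library of C1 and of S, and EP and JP overlapped.

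The stage means of MYB14 ran, from the highest, C2 with 23.6 ± 4.20 CPM (SD, n = 5), T1, JP, H, G2, C1, EP, S, T2, EI, G1 and PG with 3.10 ± 0.370 CPM (SD, n = 3). The libraries of 10 of the 11 pairs of neighbours in this order overlapped, the exception being G1 above PG. With library totals alone in place of TMM factors, T1 at 18.3 CPM and C2 at 18.0 CPM traded places at the top of this order. PG stayed at the bottom. The order between them moved too, with EP from rank 7 to 11, JP from 3 to 6, EI from 10 to 7 and G1 from 11 to 8.

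MYB15 was at 16.9, 9.28 and 10.1 CPM in the EI libraries, at 1.31, 0.789 and 1.15 CPM in PG, at 21.8, 23.7 and 25.7 CPM in G1 and at 48.7, 54.2 and 59.2 CPM in G2. Each of these stages was separated from the next without overlap. In the dark without hormones, MYB15 was at 71.2, 59.9 and 72.0 CPM in H, at 156.5, 126.0 and 197.2 CPM in T1, at 39.7, 8.06 and 19.5 CPM in T2 and at 61.8, 174.0 and 147.7 CPM in C1. The T2 libraries all lay below all those of H, T1 and C1. In the long day stages, MYB15 was at 100.3, 101.8, 79.4, 117.9 and 54.1 CPM in C2, at 25.6, 29.2 and 9.15 CPM in S, at 27.3, 21.4, 7.91, 4.28 and 5.13 CPM in EP and at 9.06, 14.7 and 12.0 CPM in JP. The C2 libraries lay above all libraries of S, EP and JP, and within EP, replicates 1 and 2 stood above the other libraries in a 6.38-fold range.

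The order of the MYB15 stage means was T1 with 159.9 ± 35.7 CPM (SD, n = 3), C1, C2, H, G2, G1, T2, S, EP, EI, JP and PG with 1.08 ± 0.269 CPM (SD, n = 3). Neighbours in this order overlapped in 8 of 11 pairs and did not between H and G2, between G2 and G1 and between JP and PG. T1 stayed highest and PG lowest under DESeq2 size factors and under library totals alone.

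**Figure D1:**
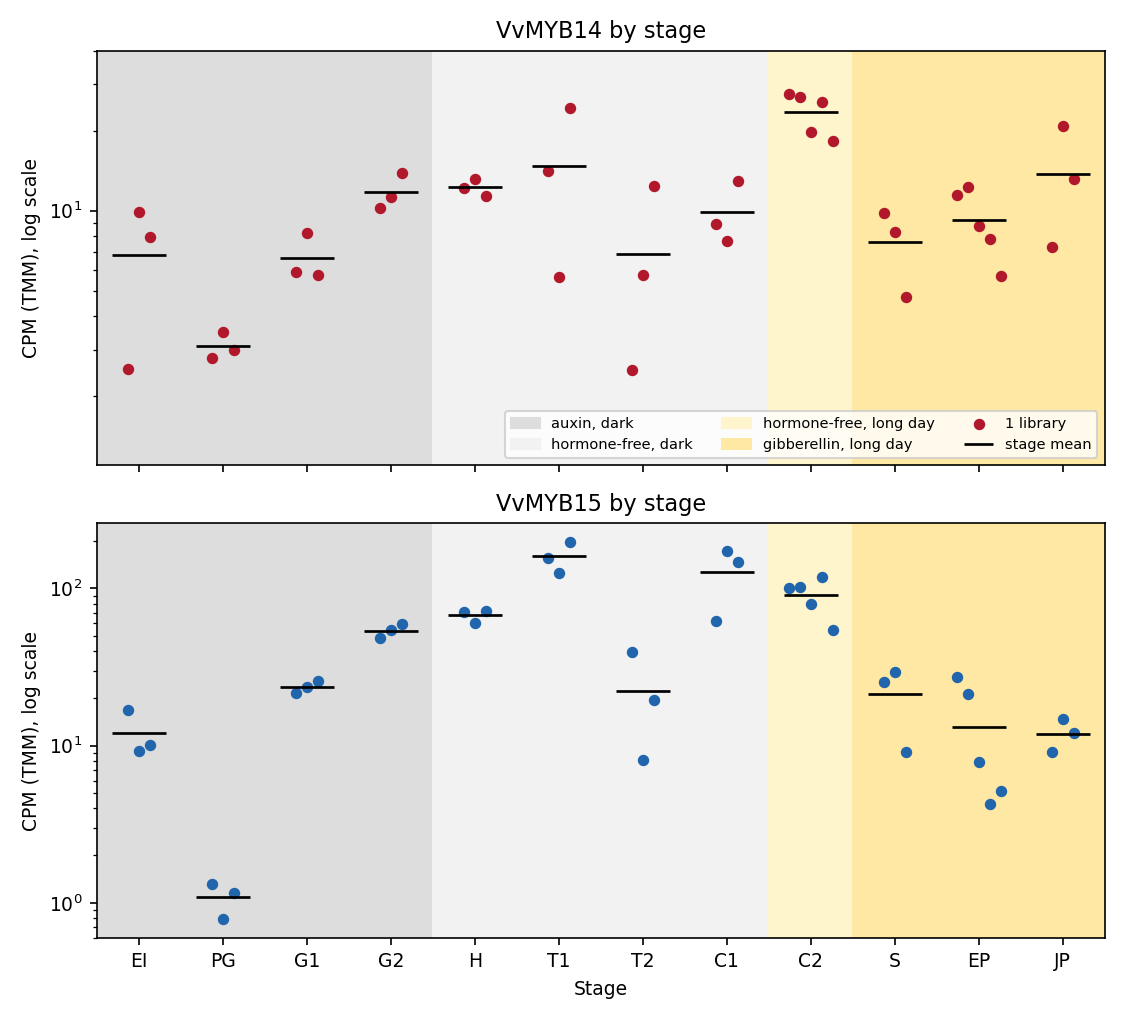
Levels of MYB14 (top) and MYB15 (bottom) in CPM on a log axis, by stage. Each point is a library, black bars are stage means and shading marks the culture condition. MYB14 was highest in C2 (mean 23.6 CPM) and MYB15 in T1 (mean 159.9 CPM), and both were lowest in PG (means 3.10 and 1.08 CPM).

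Across the 12 stages, both genes passed edgeR's quasi-likelihood F test in a fit of all 40 libraries, MYB14 with F = 5.79 (adjusted p = 6.97e-05) and MYB15 with F = 22.3 (adjusted p = 4.69e-11). Adjusted p-values are Benjamini-Hochberg values over all genes tested, with a threshold of 0.05. A change over the stages did not set them apart, because 94.7% of the 24862 genes tested passed. Between successive stages, each tested on its own libraries, MYB14 passed in 3 of 11 transitions, 2 rises and 1 fall, and MYB15 in 5, with 3 rises and 2 falls. The fold changes of both genes had the same sign in 8 of the 11 transitions, and the exceptions were C1 to C2, S to EP and EP to JP.

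From EI to PG, MYB15 fell by 3.51 on the log2 scale (SE 0.35, adjusted p = 0.00756), and its libraries did not overlap. The log2 fold change of MYB14 was -1.15 (SE 0.46, adjusted p = 0.129). EI replicate 1 stood apart in both genes, low in MYB14 and high in MYB15, and without it MYB14 also passed the test, at -1.53 (adjusted p = 0.00338). The call of MYB15 needed all libraries of PG, with adjusted p-values of 0.0616, 0.0534 and 0.0783 without PG replicate 1, 2 or 3. In this transition, 6.78% of genes passed.

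From PG to G1, both regulators rose, MYB15 by 4.48 on the log2 scale (SE 0.24, adjusted p = 0.000883) and MYB14 by 1.11 (SE 0.23, adjusted p = 0.0209). This was the largest change of MYB15 between successive stages, a 22.3-fold rise, and neither gene had overlapping libraries. The call of MYB14 was lost without PG replicate 1, 2 or 3 or without G1 replicate 3 (adjusted p = 0.0906, 0.0590, 0.108 and 0.0655), and in the fit of all libraries its adjusted p was 0.102. Of all genes tested, 25.2% passed in this transition.

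From G1 to G2, few genes passed at all (0.676%), and MYB15 was among them, with a rise of 1.16 (SE 0.14, adjusted p = 0.0449). This value lay close to the threshold and exceeded it without G1 replicate 3, G2 replicate 1, G2 replicate 2 or G2 replicate 3 (adjusted p = 0.135, 0.133, 0.264 and 0.143), as well as in the fit of all libraries (0.248). MYB14 had a log2 fold change of 0.81 (SE 0.21, adjusted p = 0.106) with no overlap between its libraries, and it passed without G1 replicate 2 (adjusted p = 0.0430) and in DESeq2 (0.0187). Both genes stood higher in each library of G2 than in each library of G1.

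The move from auxin to hormone-free medium, from G2 to H, was the transition with the most calls (56.5% of genes), and neither regulator was among them. MYB14 had a log2 fold change of 0.03 (SE 0.15, adjusted p = 0.892), the smallest of all its transitions. MYB15 had one of 0.30 (SE 0.12, adjusted p = 0.0738), with higher values in every H library, and it passed in DESeq2 (0.0374) and without G2 replicate 3 (0.0331) or H replicate 2 (0.0371). From H to T1, where 31.7% of genes passed, MYB15 rose by 1.21 (SE 0.21, adjusted p = 0.00909) to its highest level, and its adjusted p was 0.104 in the fit of all libraries. The change of MYB14 was 0.24 (SE 0.46, adjusted p = 0.709) and turned to -0.38 without T1 replicate 3.

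Of all genes tested, 2.06% passed from T1 to T2 and 0.0% from T2 to C1. In the latter transition, 0 of 21412 genes passed in edgeR's test, 1810 had an unadjusted p under 0.05 and 511 passed in DESeq2. From T1 to T2, MYB15 had a log2 fold change of -2.83 (SE 0.57, adjusted p = 0.0572) and from T2 to C1 of 2.51 (SE 0.67, adjusted p = 0.576), without overlap in either case. It passed from T1 to T2 when T2 replicate 1 (adjusted p = 0.0106) or T2 replicate 2 (0.0471) was left out or low counts were not filtered (0.0422), and both changes passed in DESeq2 (3.46e-05 and 0.0239) and in the fit of all libraries (0.00101 and 0.00441). In the latter fit, T2 and C1 share the spread of all stages. MYB14 had log2 fold changes of -1.09 (SE 0.69, adjusted p = 0.430) and 0.50 (SE 0.61, adjusted p = 0.725), with overlapping libraries. Without single libraries these ran from -1.83 to -0.50 and from 0.089 to 1.28.

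At the move into light, from C1 to C2, the fold changes of the regulators had opposite signs. MYB14 rose by 1.24 on the log2 scale (SE 0.25, adjusted p = 0.0202), a 2.36-fold change, whereas MYB15 had a log2 fold change of -0.52 (SE 0.36, adjusted p = 0.298), and 22.3% of genes passed. LHCA2, the light-harvesting gene, went from a mean of 0.363 CPM in C1 to 7.37 CPM in C2. The call of MYB14 depended on single libraries, with an adjusted p of 0.0532 without C1 replicate 2, 0.0799 without C1 replicate 3, 0.0613 without C2 replicate 1 and 0.0596 without C2 replicate 2. It was 0.0589 when C2 replicates 1 and 2, the closest pair of this stage, were summed to 1 library. MYB15 passed, with a log2 fold change of -0.87 (adjusted p = 0.0408), without C1 replicate 1.

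From C2 to S, on transfer to the medium with gibberellin and IAA, both regulators fell. MYB14 fell by 1.64 on the log2 scale (SE 0.27, adjusted p = 0.00347), and MYB15 fell by 2.11 (SE 0.41, adjusted p = 0.00665). Neither gene had overlapping libraries, 27.6% of genes passed, and both calls held without any single library, at adjusted p-values of at most 0.0136 and 0.0219. After that, neither gene passed. From S to EP, where 30.0% of genes passed, the log2 fold changes were 0.35 for MYB14 (SE 0.37, adjusted p = 0.498) and -0.60 for MYB15 (SE 0.68, adjusted p = 0.537). From EP to JP, where 5.54% passed, they were 0.54 (SE 0.39, adjusted p = 0.450) and -0.21 (SE 0.65, adjusted p = 0.868). When single libraries were left out, the changes into EP ran from 0.070 to 0.55 for MYB14 and from -1.11 to -0.31 for MYB15, and the change of MYB14 into JP from 0.086 to 0.85. The change of MYB15 into JP turned positive without EP replicate 1 (0.27) or EP replicate 2 (0.05).

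**Figure D2:**
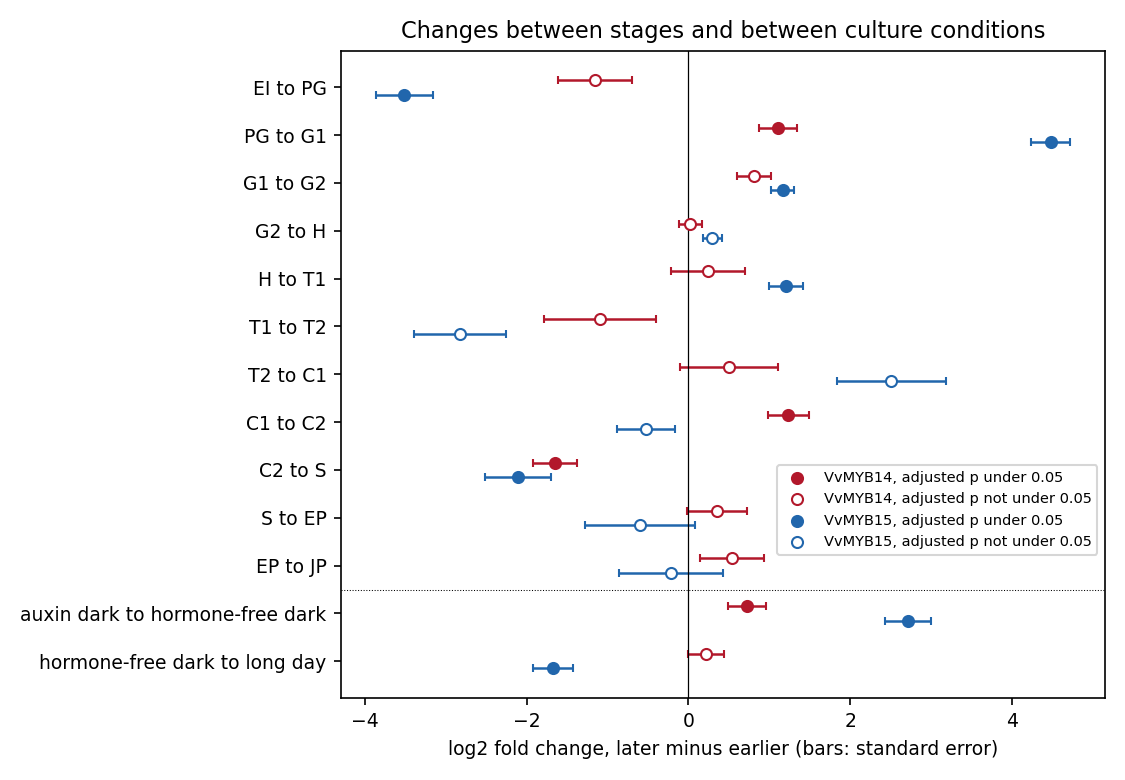
Log2 fold changes of MYB14 and MYB15, later minus earlier, between successive stages and, below the dotted line, between culture conditions; bars are standard errors and filled points have an adjusted p under 0.05. Both genes rose from PG to G1 and fell from C2 to S, while from C1 to C2 the change of MYB14, 1.24, passed and that of MYB15, -0.52, did not.

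The stages were also compared as 3 culture phases, with equal weight for each stage, 4 stages against 4, in the fit of all libraries. The long day phase joins C2 on hormone-free medium with S, EP and JP on the germination medium. From auxin to hormone-free embryos in the dark, MYB15 rose by 2.71 on the log2 scale (SE 0.28, adjusted p = 1.28e-09) and MYB14 by 0.72 (SE 0.23, adjusted p = 0.0124), in a contrast that 43.7% of genes passed. From the hormone-free dark stages to the long day stages, MYB15 fell by 1.68 (SE 0.25, adjusted p = 4.92e-07). MYB14 had a log2 fold change of 0.22 (SE 0.22, adjusted p = 0.379), and 70.9% of genes passed. The 3 calls held when any single library was left out, but libraries of the phases overlapped in both contrasts for both genes. The phase means of MYB15 were 22.7 CPM on auxin, 94.5 CPM in the hormone-free dark and 34.3 CPM in long day, and those of MYB14 were 7.07, 10.9 and 13.5 CPM. These means join unlike stages. On auxin, MYB15 stage means ran from 1.08 CPM in PG to 54.0 CPM in G2. They ran from 22.4 CPM in T2 to 159.9 CPM in T1 in the hormone-free dark, and from 11.9 CPM in JP to 90.7 CPM in C2 in long day. Between the first phases medium and stage changed together in the dark, and at the step to long day light, medium and stage did, so that these cannot be told apart.

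Because a ratio of counts within a library does not depend on its depth or scaling, the balance of both regulators was also followed as log2 of the MYB14 count over the MYB15 count, with 0.5 added to each. It changed over the stages (permutation test of 100000 shuffles of the stage labels, F = 10.02, p = 1e-05, the smallest value the shuffles can give), and its stage means spanned 5.17 on the log2 scale. The ratio was highest in PG, with 1.07, 2.12 and 1.36 in its libraries, and lowest in T1, with -3.48, -4.48 and -3.02. C1 was next to T1, with -2.79, -4.50 and -3.51, and JP next to PG, with -0.31, 0.50 and 0.13. In C2 the ratio lay between -2.21 and -1.56, above every library of C1, the last stage before the step into light. It was not above all dark stages, since T2 replicates 2 and 3 were at -0.49 and -0.65 and PG was higher still.

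**Figure D3:**
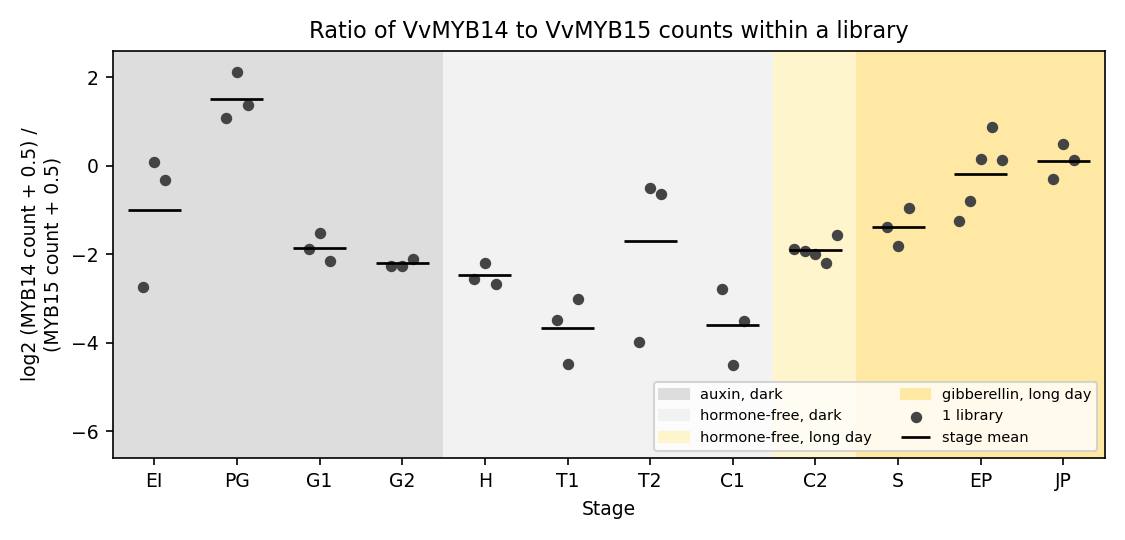
Log2 of the ratio of MYB14 to MYB15 counts, 0.5 added to each, by stage; points are libraries and bars are stage means. PG is at the top (mean 1.52) and T1 at the bottom (mean -3.66), and 1 library each of EI and T2 lies far below the others of its stage.

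In most stages, the order of the libraries differed between the regulators. The library with the highest MYB14 level was also the highest in MYB15 in 3 of 12 stages (G2, T1 and JP). The lowest library was shared in 5 of 12 stages (G2, T1, C2, S and JP). Whether such counts differ from those of unrelated genes was not tested. EI replicate 1 had the lowest MYB14 and the highest MYB15 of its stage, with a ratio of -2.73 against 0.10 and -0.33 in the other libraries. T2 replicate 1 showed the same, with -3.97 against -0.49 and -0.65. In EP, the ratios were -1.25, -0.80, 0.15, 0.88 and 0.14 in replicates 1 to 5, and the lowest belonged to the replicates with the most MYB15.

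Genes of the pathway were followed as ranges of identifiers. These were 39 identifiers of an STS array on chromosome 16, 10 of an STS array on chromosome 10, 28 assigned to PAL and 3 to CHS. They were assigned from general knowledge of the grapevine annotation, because no source used here names single identifiers of these ranges. Members of the arrays are near-identical copies, so that reads may have been divided among them, and sums over a range are less affected than single genes. The chromosome 16 array summed to 64.8 ± 3.56 CPM in PG and to 3613 ± 451 CPM in H (SD, n = 3 each), its lowest and highest stage means. The chromosome 10 array was lowest in PG too, at 1.05 ± 0.572 CPM, and highest in T1, the stage where MYB15 peaked, at 444.9 ± 79.8 CPM.

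**Figure D4:**
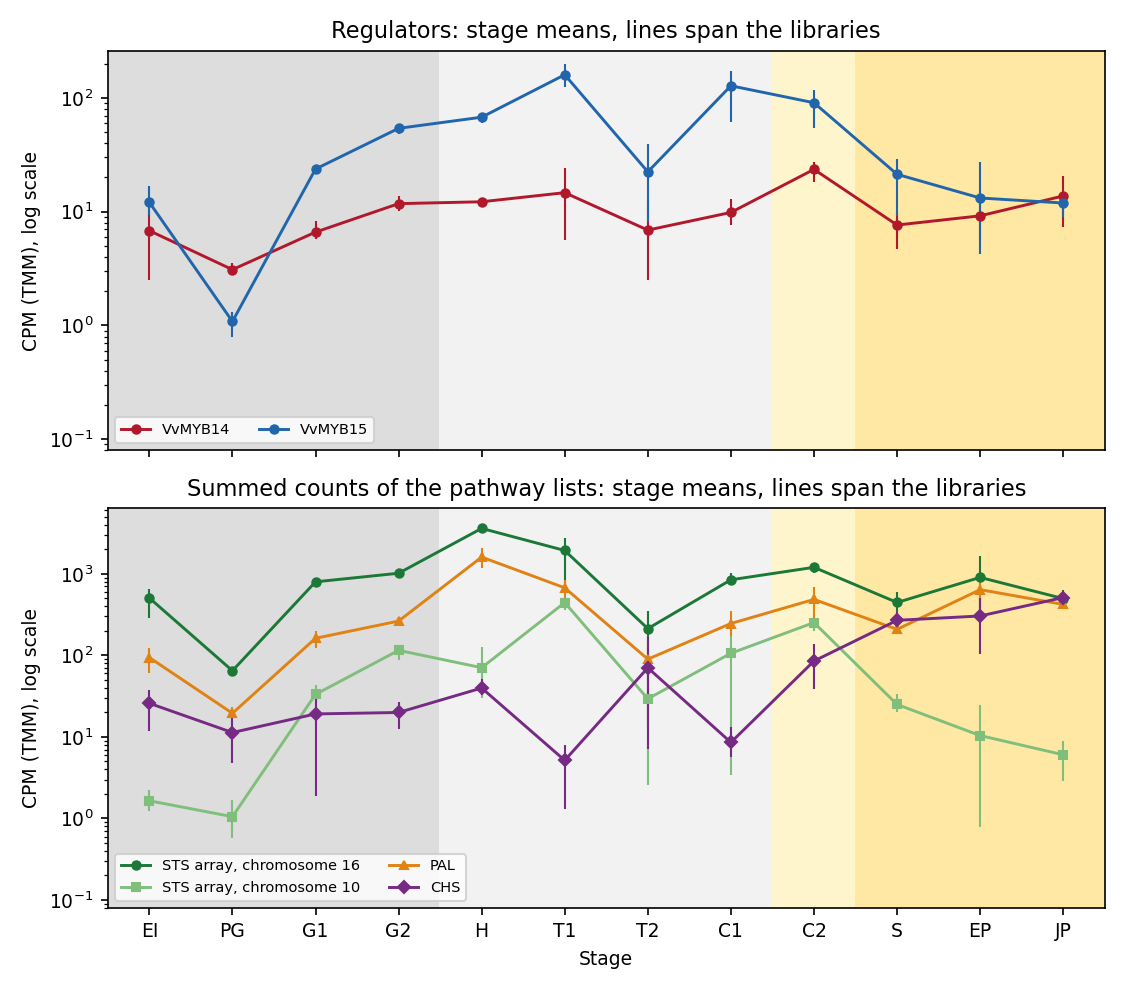
Stage means of both regulators (top) and of the summed pathway ranges (bottom) in CPM on log axes; vertical lines span the libraries of a stage and shading marks the culture condition as in the plot of levels by stage. Levels are not per length, so curves are to be compared in shape only. The STS arrays and PAL have their lowest mean in PG and a lower mean in T2 than in T1 and C1, like both regulators, and CHS is highest in JP (mean 512.3 CPM). Few genes of the arrays and PAL passed from T1 to T2, and no gene did from T2 to C1. MYB14 passed in neither step, and the chromosome 10 array overlapped between T2 and C1.

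From PG to G1, where both regulators rose, 33 of 33 chromosome 16 genes and 7 of 7 chromosome 10 genes that entered the test rose, with median log2 fold changes of 4.11 and 4.87 against 0.02 over all genes, of which 16.2% rose. From EI to PG, where MYB15 fell, 21 of 27 tested genes of the chromosome 16 array fell, against 3.92% of all genes. This count rested on single libraries, with 26 falls without EI replicate 1 but 5 without EI replicate 3, 1 without PG replicate 1, 1 without PG replicate 2 and 0 without PG replicate 3. Genes passing in the whole table moved with it, from 0 to 4501. From H to T1, where MYB15 but not MYB14 passed, the arrays differed. All 9 tested chromosome 10 genes rose (median 2.62), whereas 9 of 35 chromosome 16 genes rose and 4 fell (median -0.28), among 17.5% of all genes that rose and 14.3% that fell. Without T1 replicate 2, the chromosome 16 counts were 16 and 13, and without any other single library of H or T1 they were 3 to 6 and 1 to 2, or 0 and 2 in the fit of all libraries. The chromosome 10 count was 6 without H replicate 3 and in the fit of all libraries. From C2 to S, where both regulators fell, 27 of 37 chromosome 16 genes and 9 of 9 chromosome 10 genes fell, against 11.52% of all genes. In the fit of all libraries, 17 of the chromosome 16 genes fell. From C1 to C2, where MYB14 rose, 4 of 37 chromosome 16 genes rose, 1 fell and none of 9 chromosome 10 genes passed, while 9.22% of all genes rose and 13.1% fell. None of the chromosome 16 genes passed without C1 replicate 2 or 3 or without C2 replicate 1 or 2, 1 rose without C2 replicate 4, and 13 rose in DESeq2. From T1 to T2, 1 of 35 chromosome 16, 2 of 9 chromosome 10 and 1 of 15 PAL genes fell, against 1.78% of all genes. The fit of all libraries had 34 of 37, 9 of 9 and 12 of 17 fall. From T2 to C1, 0 genes of these ranges passed. A gene entered a test only with enough counts in the stages compared, so that genes near 0 in both are not in these counts.

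From G2 to H, genes of the chromosome 16 array and of PAL passed although neither MYB14 nor MYB15 did. There, 22 of 35 tested chromosome 16 genes rose and 1 fell (median 1.23), and 13 of 16 PAL genes rose and 2 fell (median 2.20). Of all genes, 27.6% rose and 28.9% fell. None of the 9 chromosome 10 genes passed, but all 9 fell without H replicate 1. In the fit of all libraries, 9 chromosome 16 and 9 PAL genes rose. CHS, the competitor for the same substrates, had 3 of 3 genes rise from C1 to C2 and 2 of 3 from C2 to S, where 9.22% and 16.1% of all genes rose. From C1 to C2, 1 CHS gene passed when C1 replicate 2 was left out and 0 when it was C1 replicate 3 or either of C2 replicates 1 and 2, while from C2 to S the count was 1 without S replicate 2 and 0 in the fit of all libraries. From the hormone-free dark to the long day stages, all 3 CHS genes rose (median 4.0 on the log2 scale), while 21 of 37 chromosome 16 genes and 9 of 9 chromosome 10 genes fell and 1 chromosome 16 gene rose. Of all genes, 33.6% rose and 37.3% fell in this contrast.

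The gene with the highest stage mean peaked in H in the chromosome 16 array and in the PAL range, in T1 in the chromosome 10 array and in JP in the CHS list. VIT_16s0100g01110 of the chromosome 16 array reached 524.7 ± 84.8 CPM in H and VIT_10s0042g00920 of the chromosome 10 array 138.3 ± 21.2 CPM in T1. In the PAL range it was VIT_08s0040g01710 with 567.6 ± 173.8 CPM in H, and in the CHS list VIT_05s0136g00260 with 209.0 ± 17.4 CPM in JP (SD, n = 3 each). All 9 measured chromosome 10 genes peaked in T1 like MYB15. Of 37 measured chromosome 16 genes, 18 peaked in H, 16 in T1 and 3 in C2, the stage where MYB14 was highest. Over all genes tested, 13.2% peaked in H, 6.79% in T1 and 8.49% in C2.

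Likeness over the stages was described by Pearson's r between stage means of log2 CPM, with a prior count of 2, over 12 points that share libraries and scaling. Both regulators, both summed arrays and summed PAL had their lowest stage mean in PG, and every r given here includes that stage. MYB14 and MYB15 had an r of 0.77 with each other, rank 188 of 24861 genes for MYB14 and rank 533 for MYB15. MYB15 was close to both arrays, with a median r of 0.87 for 37 genes of the chromosome 16 array and 0.87 for 9 of the chromosome 10 array, and 24 and 9 of them exceeded 0.8, as did 1.54% of all genes. For MYB14 the medians were 0.77 and 0.69, and 14 and 0 genes exceeded 0.8, as did 0.422% of all genes. PAL had medians of 0.79 with MYB15 and 0.70 with MYB14 over 17 genes, and CHS of -0.22 and 0.25 over 3. The medians over all genes were 0.02 and 0.01. For the summed ranges, r with MYB15 was 0.83, 0.92, 0.705 and -0.26 for the chromosome 16 array, the chromosome 10 array, PAL and CHS, and r with MYB14 was 0.78, 0.73, 0.83 and 0.20. Summed PAL was thus closer to MYB14, while the median over its genes was closer to MYB15.

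Libraries of 1 stage were compared as well. The library highest in MYB14 was also the highest in the summed chromosome 16 array in 9 of 12 stages, and in summed PAL in 9 of 12. For MYB15, these numbers were 4 and 3. Shared lowest libraries did not differ in this way, with 8 stages for the array and 6 for PAL by MYB14 against 8 and 5 by MYB15. In EI, for example, replicate 1 was lowest in MYB14 (2.53 CPM) and in the array (287.1 CPM, against 658.6 and 572.4 CPM), while it was highest in MYB15. In T1, replicate 2 was lowest in MYB14 (5.64 CPM), in MYB15 (126.0 CPM) and in the array (666.5 CPM, against 2419 and 2719 CPM). With the summed chromosome 10 array, MYB14 shared its highest library in 5 of 12 stages and its lowest in 2, and MYB15 shared them in 2 and 5. These counts were chosen after their values were seen, and the difference between the regulators was not tested. The same counts were not made over all genes.

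The genes most like MYB14 over the stage means were VIT_02s0234g00130 (r = 0.93) and VIT_09s0002g00890 (r = 0.92), both highest in C2, at 79.2 and 120.8 CPM. Those most like MYB15 were VIT_18s0001g06610 and VIT_01s0011g01350 (r = 0.97 each), both highest in T1, at 143.8 and 42.4 CPM. The sources used here do not name these genes. The identifiers on either side of each member were looked up as well. Next to MYB15, VIT_05s0049g01010 had no counts in any library of EI or PG. It was at 1.515 ± 0.700 CPM in G2 and highest in H, at 11.9 ± 1.77 CPM (SD, n = 3 each), without overlap between their libraries. It stood at 8.12 ± 4.75 CPM in C1, 3.48 ± 0.507 CPM in C2 (n = 5) and 0.312 ± 0.0485 CPM in JP. In T1, where MYB15 was highest, it was at 3.26 ± 1.42 CPM. On the other side, VIT_05s0049g01040 had stage means between 22.3 and 90.3 CPM and no minimum in PG, where it was at 76.9 CPM. The neighbours of MYB14 also lacked its minimum in PG, with VIT_07s0005g03330 at 18.0 CPM there, its highest stage mean, and VIT_07s0005g03350 at 156.4 CPM, between stage means of 95.7 and 437.8 CPM.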

How the data were processed

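RNA-seq of 40 libraries was used, with stages and replicate numbers taken from the sample titles. The authors removed rRNA, mapped paired-end reads with BBMap to the 12X assembly and deposited raw counts of reads per open reading frame. The treatment of multi-mapping reads and of strand: not given in the sources used here. Each row had an identifier, and 0 identifiers matched the RefSeq list of assembly ASM3070453v1, so that no coordinates, lengths or sequences were used. The names of both regulators follow general knowledge of this annotation. Both genes, the pathway lists and the rule for named genes were chosen with earlier results of these data known. The named genes were both regulators, the identifiers next to them, the gene with the highest stage mean in each list and the 2 genes most like each regulator.

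Counts were analysed with edgeR 4.0.16 (TMM, filterByExpr, quasi-likelihood test, Benjamini-Hochberg adjustment) under R 4.3.3, with DESeq2 1.42.0 as an alternative. Levels, ratios, correlations and plots were made in Python 3.11.15 (pandas 2.3.3, numpy 2.4.6, matplotlib 3.10.9). Successive stages were fitted on their own libraries, and all stages and phases on all 40. The tests were tested on simulated counts with known changes. Other alternatives were DESeq2 size factors, library totals alone, no filter on low counts, 1 fit of all libraries, the replicate number as a block, 1 added to ratios, a prior count of 0.5, Spearman's correlation and leaving out each library. Summing the closest replicates of C2 and of EP was chosen after seeing the data. The study calls the replicates of each stage biological. The labels do not say whether replicates came from separate cultures, so that p-values measure the spread between these samples.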

Additional observations from a re-analysis of the deposited data

How the results depend on the processing

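Both regulators passed the test across the 12 stages under all alternatives run, as did the 3 calls between culture phases. With DESeq2 size factors, no call between stages changed. With 1 fit of all libraries, MYB14 from PG to G1 (1.09), MYB15 from G1 to G2 (1.19) and MYB15 from H to T1 (1.24) were no longer called, and MYB15 from T1 to T2 (-2.84) and from T2 to C1 (2.51) was. In DESeq2, MYB14 from G1 to G2 (0.83) and MYB15 from G2 to H (0.34), T1 to T2 (-2.83) and T2 to C1 (2.52) were called, and without a filter on low counts MYB15 from T1 to T2 (-2.84) was. With the closest replicates summed, MYB14 from C1 to C2 (1.19) was not called and MYB15 from EP to JP was 0.11. MYB14 had 1 rise called in the fit of all libraries, and MYB15 had 5 in DESeq2. The cause of these differences was not tested.

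The replicate number as a block left MYB14 from C1 to C2 at 1.31 (edgeR, adjusted p = 0.0883) and MYB15 from G1 to G2 at 1.17 (0.131), with 1 rise of MYB14 called. In fits of successive stages with this block, replicates 4 and 5 of C2 or EP had no partner of their number. They then had no influence on the change, so that these fits also differed in the libraries that counted. Same-numbered samples of successive stages had correlations of their deviations from -0.471 to 0.249. In 0 of 11 transitions did all pairs exceed 0.1, and 26 of 66 samples correlated best with their own number. With so few replicates per stage, these values cannot tell whether same-numbered samples share more than a number.

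Leaving out single libraries gave log2 fold changes of MYB14 from -1.53 to -0.77 (EI to PG), 0.89 to 1.21 (PG to G1), 0.68 to 0.99 (G1 to G2), -0.021 to 0.20 (G2 to H), -0.38 to 0.62 (H to T1) and 1.07 to 1.495 (C1 to C2). For MYB15 they ran from -3.65 to -3.17 (EI to PG), 1.09 to 1.22 (G1 to G2), 0.26 to 0.42 (G2 to H), -3.54 to -2.42 (T1 to T2), -0.87 to -0.25 (C1 to C2) and -0.48 to 0.27 (EP to JP). MYB14 then had 1 to 3 rises and 1 to 2 falls called, and MYB15 1 to 3 falls. With 1 replicate number left out in all stages, the correlation of both genes over the stages ranged from 0.66 to 0.83, and Spearman's on all libraries was 0.62. The median r of MYB14 then ran from 0.63 to 0.80 with the chromosome 16 array and from 0.57 to 0.79 with the chromosome 10 array. For MYB15 these medians ran from 0.81 to 0.90 and from 0.82 to 0.91.

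With library totals alone, MYB14 means were 3.51 (PG), 8.56 (G1), 14.6 (G2), 17.7 (H), 12.8 (C1), 18.0 (C2) and 5.55 CPM (EP), and MYB15 means 16.8 (EI), 31.0 (G1), 67.2 (G2), 98.0 (H), 197.4 (T1) and 8.45 CPM (JP). The background moved more. Genes passing from C1 to C2 numbered 5010, against 0 with the block, 12 with closest replicates summed, 8054 in DESeq2 and 9593 in the fit of all libraries. In the same order without the summed setting, they were 145 against 0, 2692 and 614 from G1 to G2, and 430 against 119, 2304 and 2877 from T1 to T2. From T2 to C1 they were 0 against 0, 511 and 2152, from EI to PG 1373 against 130, 4346 and 1682, and from EP to JP 1198 against 8849, 3081 and 2385, or 628 with closest replicates summed. The fit of all libraries gave 5611 in place of 12138 from G2 to H and 3840 in place of 6762 from H to T1.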
